A study of Homo sapiens with 2 samples.

Results

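H4R3me2a, histone H4 carrying asymmetrically dimethylated arginine at residue 3, is a mark laid down chiefly by the methyltransferase PRMT1. Its peaks were described at 38 genes of glycolysis, the pentose phosphate pathway and the steps that feed or drain them. The genes were listed by symbol from their place in the pathway, with earlier results of these data known, and all 38 were found among the 19970 protein-coding genes of GENCODE release 44 on chromosomes 1 to 22 and X. The data came from HCT116, an established human colorectal carcinoma cell line grown without drug treatment, cross-linked with formaldehyde and sheared by sonication. They consist of 1 library immunoprecipitated with an antibody against H4R3me2a and 1 library of input DNA from the same line, without replicates, so no difference below has a replicate check, no test was possible and intervals cover counting error alone. Input DNA is sheared chromatin that was not immunoprecipitated, and served as the authors' control for calling peaks.

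Glycolysis splits glucose into pyruvate in the cytosol. Glucose enters through SLC2A transporters, is trapped by hexokinases, and is committed by phosphofructokinases. The pentose phosphate pathway branches off at glucose 6-phosphate and supplies NADPH and ribose for nucleotides. Most steps have several isozymes encoded by separate genes that differ between tissues, and many tumour cells, colorectal carcinoma among them, run glycolysis at a high rate and export the resulting lactate. H4R3me2a is generally described as a mark of transcriptionally active chromatin.

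A peak was assigned to a gene when its summit, the base with the most fragments, lay inside the gene or within 1 kb of one of its annotated transcription start sites (TSSs). Of the 33349 peaks on chromosomes 1 to 22 and X, 91 were assigned to these genes, each to only 1 of them. They fell at 24 of the 38 genes. The peaks rested on few fragments: the pileup (fragments over the summit) ranged from 6 to 23 with a median of 11 at these genes and had a median of 10 over all peaks. The authors' fold enrichment is the pileup over local background, read here with 1 added to each. It ranged from 2.61 to 8.15 with a median of 4.31, and had a median of 4.18 over all peaks. A fold of 6 or more was given to 9 of the 91 peaks (9.89%), at 6 genes, and to 3.51% of all peaks. Because the fold depends on the background, which ranged from 0.698 to 5.12 fragments at these peaks, it was used as a description of single peaks and not to order genes by how much of the mark they carry. A peak list holds no expression, so the line's identity could be looked at only as the presence of peaks: 6 of 8 colon epithelial marker genes had one (CDX2 and KRT18 had none), and so did 2 of 6 marker genes of other cell types (VWF and COL1A1), against 47.2% of all protein-coding genes. Lists this small do not tell cell types apart by peaks.

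More of the pathway genes carried a peak at an internal TSS than protein-coding genes in general, while the shares with any peak, with a 5' end peak and with a body peak had intervals that include the general share. Any peak was present at 24 of 38 genes (63.2%, exact 95% interval 46.0 to 78.2%), against 47.2% of all protein-coding genes, just inside the interval. A summit within 1 kb of the outermost 5' end of the gene was present at 10 genes (26.3%, 13.4 to 43.1%), against 19.2%. That count depends on the window, with 5 genes at 500 bp and 17 at 3 kb. A summit within 1 kb of another annotated TSS of the gene was present at 17 genes (44.7%, 28.6 to 61.7%), against 18.1%, below the interval. A summit elsewhere in the gene body was present at 14 genes (36.8%, 21.8 to 54.0%), against 32.8%. Among the 38 genes, 14 (36.8%) had none at the 5' end but another elsewhere, against 28% of all protein-coding genes. A peak that lay in no other protein-coding gene or at its TSS was present at 21 genes (55.3%), against 39.1%. For several peaks in a gene, 14 genes (36.8%, 21.8 to 54.0%) had 2 or more, against 27.3%, inside the interval, and 8 genes (21.1%, 9.55 to 37.3%) had 5 or more, against 8.64%, just below the interval. These 8 were SLC16A3, PFKFB3, PFKL, PFKP, PFKFB4, TKT, HK1 and ENO1.

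The pathway genes had a median of 10 annotated TSSs, against 5 for all protein-coding genes, and so more sequence within 1 kb of one for their length. At short genes with many TSSs, such as ENO2 and ALDOA, these windows span nearly the whole gene. Most summits there would be classed as near a TSS. Per length of sequence, peaks at internal TSSs numbered 129 per Mb of such sequence at the pathway genes and 70.5 per Mb over all protein-coding genes. SLC16A3 alone held 21 of the 91 peaks, and the density at internal TSSs was 103 per Mb without it. In gene bodies away from TSSs the densities were 38.1 per Mb at the pathway genes, 28.1 per Mb without SLC16A3, and 13.9 per Mb over all protein-coding genes. When TSSs of protein-coding transcripts alone were counted, 10 of the 38 pathway genes had a peak at an internal TSS, against 11.1% of all protein-coding genes.

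**Figure D1:**
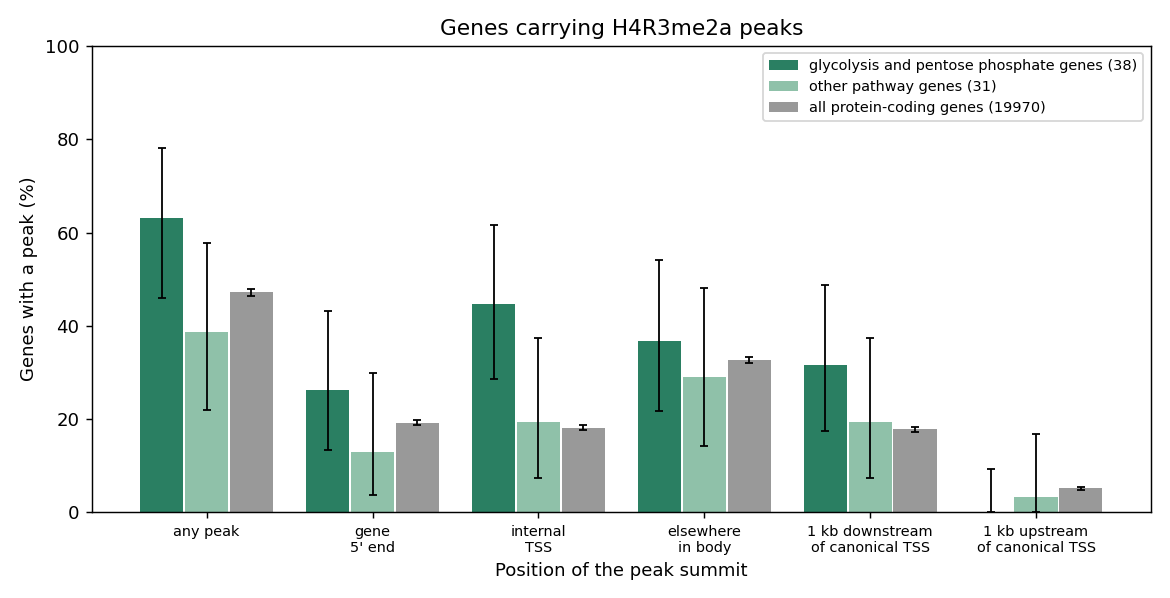
Percentage of genes with at least 1 H4R3me2a peak (y axis) by position of the summit (x axis), for the 38 glycolysis and pentose phosphate genes, 31 other genes of the pathway and all 19970 protein-coding genes. Bars are shares and lines are exact 95% intervals that cover counting error only. The widest gap between the 38 genes and all genes is at internal TSSs, 44.7% against 18.1%.

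Base composition moved with these counts. The gene bodies of the 38 genes had a median GC content of 50.5%, against 45.3% for all protein-coding genes. Among pathway genes with 50 to 55% GC, 9 of 11 had a peak, against 67.8% of all protein-coding genes in that range. With 55% GC or more, 7 of 9 had a peak, against 70.2%. Between 45 and 50% GC, 4 of 6 had a peak, against 50.3%, and between 40 and 45% GC it was 2 of 8, against 37.4%. Below 40% GC, 2 of 4 had a peak, against 25%. The share with a peak was thus lower below 45% GC than above it, in the pathway and over all protein-coding genes. By length, of the pathway genes up to 10 kb long 6 of 10 had a peak, against 34.3% of all protein-coding genes of that length, and of those over 60 kb 3 of 7 did, against 52.3%. Length and GC content are those of the whole annotated gene. At SLC2A3, PGK1 and LDHB, all over 60 kb and without a peak, most of it lies upstream of the canonical TSS. The part of GC content, of length and of the number of TSSs in the shares above was not tested.

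**Figure D2:**
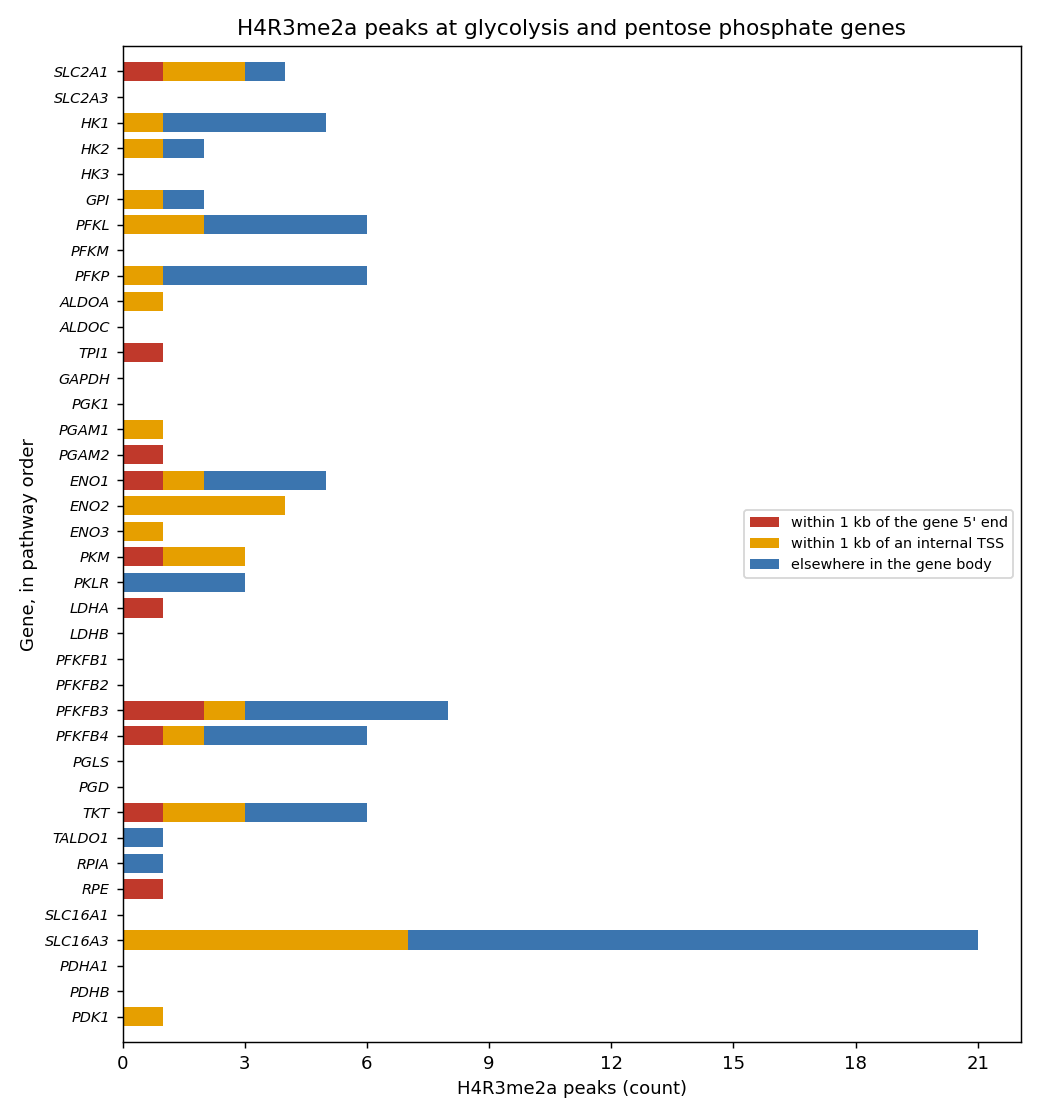
Number of H4R3me2a peaks (x axis) at each of the 38 genes in pathway order (y axis), split by position of the summit. SLC16A3 has 21 peaks, PFKFB3 has 8, and 14 genes have none.

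Within 1 kb of canonical start sites the summits lay on the transcribed side. The canonical TSS, that of the representative transcript in GENCODE, often differs from the outermost 5' end, and at 15 of the 38 genes it lay more than 1 kb inside. Within 1 kb of the canonical TSS there were 14 summits at 12 genes, and all 14 lay downstream, at 155 to 885 bp. The 12 genes (31.6%, 17.5 to 48.7%) compare with 17.8% of all protein-coding genes that had a summit in the same place. Upstream, within 1 kb, 0 of the 38 genes had a summit, which allows a share of up to 9.25% (exact 95% interval), against 5.15% of all protein-coding genes. Both general shares lie inside the intervals, and over all protein-coding genes summits were also more frequent downstream (3834) than upstream (1080). Of the 14 summits, 12 lay in the first intron. Of the 30 peaks at internal TSSs, 7 belonged to these canonical starts (at HK1, GPI, ENO1, ENO2, PKM, SLC16A3 and PDK1), and 23 lay at other TSSs of the genes.

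**Figure D3:**
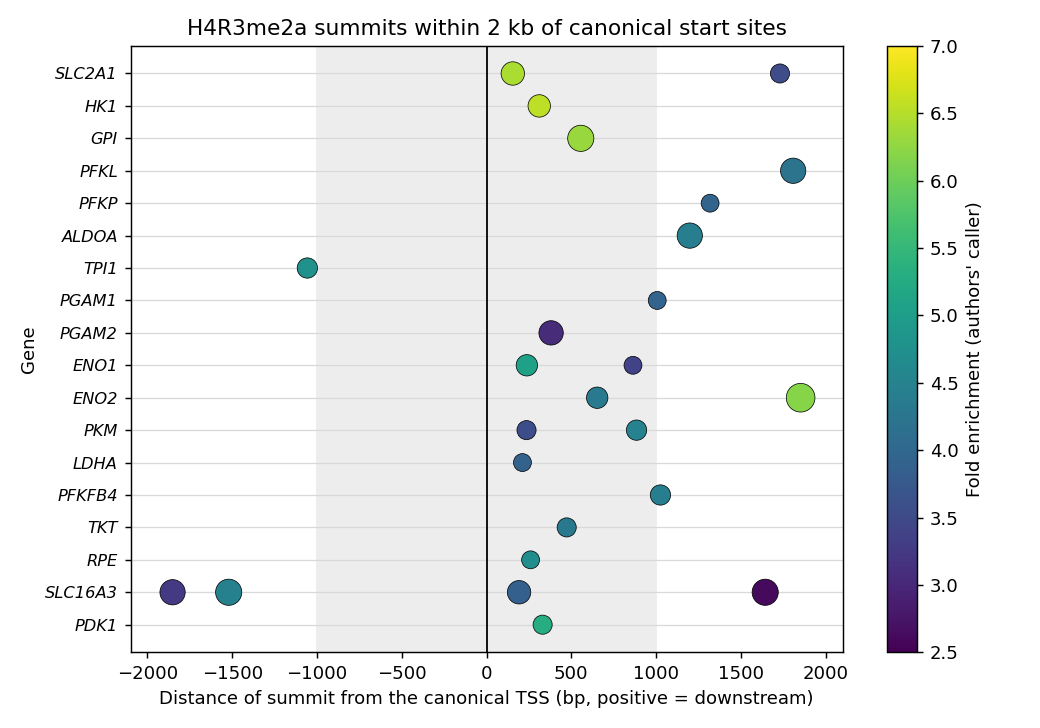
Distance of each summit from the canonical TSS in bp (x axis, positive downstream) for pathway genes with a summit within 2 kb (y axis). Point area is proportional to the pileup, color gives the authors' fold enrichment, and the grey band spans 1 kb on either side. No summit lies in the upstream part of the band, and 14 lie downstream between 155 and 885 bp.

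Summits at canonical starts lay in CpG-rich sequence, and the other summits of the pathway mostly did not. Over windows reaching 200 bp from each of the 14 summits, the CpG observed to expected ratio had a median of 0.784 (0.395 to 1.00) and GC content had a median of 67.5%. At the other 77 summits the medians were 0.306 (0.036 to 0.982) and 60.1%. The same contrast held over all protein-coding genes, with CpG ratios of 0.692 at canonical starts and 0.292 elsewhere, so it is not particular to these genes. The sequences below show it for the peaks with the highest fold in each set, 1 a gene, whose central 121 bases hold no annotated UTR. They are GRCh38 sequence on the strand of the gene, 5' to 3', centred on the summit, with each CpG in capitals. Within 1 kb downstream of the canonical TSS, in the first intron, these are HK1 at chr10:69319098-69319218 (plus strand, 9 CpGs), GPI at chr19:34365692-34365812 (plus strand, 7 CpGs) and PDK1 at chr2:172556361-172556481 (plus strand, 14 CpGs).
HK1: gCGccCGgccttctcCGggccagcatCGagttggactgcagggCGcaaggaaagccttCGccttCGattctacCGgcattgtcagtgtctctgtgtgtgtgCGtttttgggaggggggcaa
GPI: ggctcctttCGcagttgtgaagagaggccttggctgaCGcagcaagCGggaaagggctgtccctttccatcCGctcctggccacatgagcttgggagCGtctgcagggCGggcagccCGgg
PDK1: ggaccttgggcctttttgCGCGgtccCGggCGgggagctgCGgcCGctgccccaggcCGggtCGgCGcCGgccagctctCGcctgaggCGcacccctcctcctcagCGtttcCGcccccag
Away from the canonical start, these are SLC16A3 at chr17:82219515-82219635 (plus strand, 3 CpGs), ENO1 at chr1:8865834-8865954 (minus strand, intron 7, 3 CpGs) and ENO2 at chr12:6916373-6916493 (plus strand, summit in coding exon 3, 2 CpGs).
SLC16A3: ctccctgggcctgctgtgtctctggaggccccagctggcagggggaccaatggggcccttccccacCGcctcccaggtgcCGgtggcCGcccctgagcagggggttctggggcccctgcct
ENO1: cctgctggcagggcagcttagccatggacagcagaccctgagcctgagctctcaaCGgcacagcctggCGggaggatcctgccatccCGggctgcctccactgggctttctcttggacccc
ENO2: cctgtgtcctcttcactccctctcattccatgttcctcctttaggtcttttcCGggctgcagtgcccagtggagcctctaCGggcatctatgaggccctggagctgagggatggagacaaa
The SLC16A3 sequence is as GC-rich (74.4%) as that of PDK1 (76.9%) but holds far fewer CpGs. The letters ACGTG, the core of the hypoxia response element bound by HIF factors, were searched on both strands of the same windows. They were present at 25 of the 91 summits (27.5%), against 24.5% of all summits. The E-box CACGTG, which contains ACGTG and is bound by MYC and ChREBP among others, was present at 8 (8.79%), against 8.02% of all summits. Both shares were near those of all summits. At the 14 summits downstream of canonical TSSs ACGTG was present at 6 (42.9%), against 26.8% of the summits in that place over all protein-coding genes, a difference of few summits that was not tested.

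**Figure D4:**
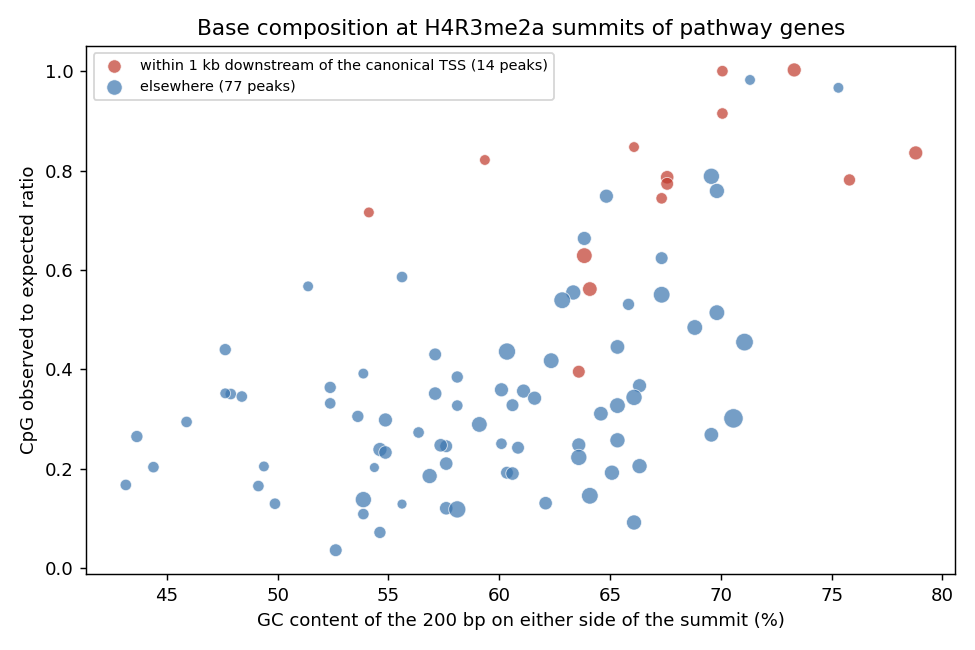
GC content (x axis, %) of the windows reaching 200 bp from each of the 91 summits against the CpG observed to expected ratio (y axis), with point area proportional to the pileup. The 14 summits within 1 kb downstream of a canonical TSS have a median CpG ratio of 0.784, and the other 77 have a median of 0.306.

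Of the glucose transporter genes, SLC2A1, which encodes the broadly expressed transporter GLUT1, carried 4 peaks and SLC2A3, which encodes GLUT3, carried none. The peak at the start of SLC2A1 (chr1:42958461-42958799) had its summit in the 5' UTR, 155 bp from the canonical TSS, with a pileup of 12 over a background of 1.02 fragments, a fold of 6.42 and a −log10 q of 5.13. A smaller peak lay in the first intron, 1731 bp from the canonical TSS, with a fold of 3.52. The others formed a pair in intron 4, 28312 and 28818 bp from the canonical TSS, near an internal TSS, each with a pileup of 12 and with folds of 4.06 and 3.83. The nearest peak to SLC2A3 lay 127162 bp beyond its upstream end.

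Among the 13 isozymes of the 5 families HK, PFK, ALDO, ENO and LDH, 9 had a peak, against 47.2% of all protein-coding genes, and these held 31 peaks. Each family but the enolases contained at least 1 gene without any peak, namely HK3, PFKM, ALDOC and LDHB.

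**Figure D5:**
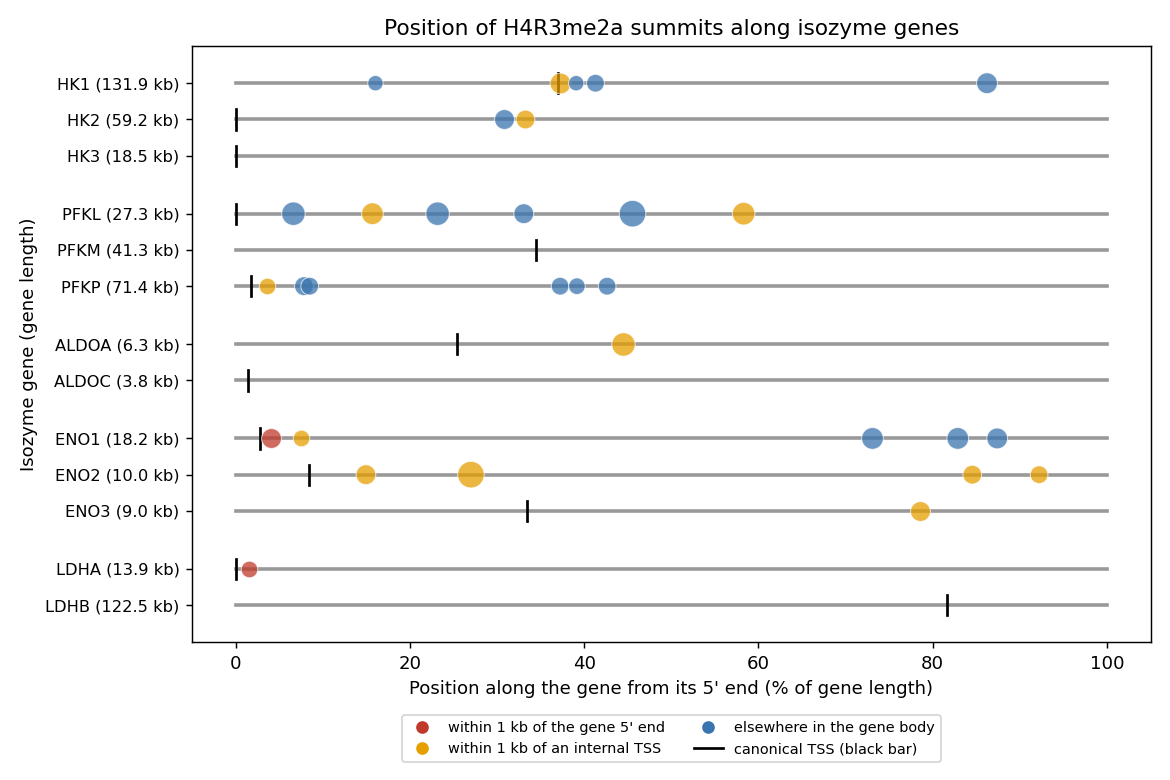
Summits along the 13 isozyme genes, as a percentage of gene length from the outermost 5' end (x axis), with gene lengths in kb beside the names (y axis). Point area is proportional to the pileup, color gives the position class, and black bars mark the canonical TSS. HK3, PFKM, ALDOC and LDHB have no summit.

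The hexokinases phosphorylate glucose. HK1, the widely expressed form that binds to mitochondria, had 5 peaks over 131.9 kb, with pileups of 6 to 11. The highest fold of these, 6.56, was that of a peak 311 bp into the canonical transcript (chr10:69318992-69319436, pileup 11, background 0.829, −log10 q 5.09), printed above. This start lies 48863 bp inside the outermost 5' end of the gene, which itself had no peak within 1 kb. HK2, the form commonly raised in tumours, had 2 peaks, both in the first intron, 18241 and 19687 bp from its start, and none at the start itself. The one with the higher fold (chr2:74852327-74852527) had a pileup of 10 over a background of 1.04, a fold of 5.40 and a −log10 q of 3.74. HK3, expressed mainly in myeloid cells, had none, and the nearest peak lay 4884 bp beyond its end. Its GC content was 54.3%, against 47.6% for HK1. In the 1 kb downstream of the canonical TSS it was 49.4%, against 63.5% for HK1, with CpG ratios of 0.164 and 0.767. Per 10 kb of gene, HK1 had 0.379 peaks and HK2, 59.2 kb long, had 0.338. HKDC1, a hexokinase gene outside the list, had none.

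Phosphofructokinase commits fructose 6-phosphate to glycolysis. PFKL, named for the liver form, and PFKP, named for the platelet form, had 6 peaks each, and PFKM, named for the muscle form, had none over 41.3 kb. Neither PFKL nor PFKP had a summit within 1 kb of its outermost 5' end. At PFKL all 6 lay between 1809 and 15930 bp from the canonical TSS, with pileups of 10 to 18. The highest fold there was 5.13 (chr21:44304242-44304574, pileup 12, background 1.54, −log10 q 3.81), at an internal TSS in the first intron. The highest pileup, 18 over a background of 2.82 with a fold of 4.98 and a −log10 q of 4.90, lay in intron 4 (chr21:44312376-44312581). A peak of 732 bp in the first intron (chr21:44301655-44302386, pileup 14, background 2.56, fold 4.21, −log10 q 3.23) was among the 5 widest of the pathway. At PFKP pileups were lower, 7 to 9, and the summits formed groups in the first and second introns. The highest fold was 5.25 (chr10:3092854-3093104, pileup 8, background 0.713, −log10 q 3.30). GC content was 63.5% in PFKL, 51.4% in PFKP and 44.8% in PFKM, and the peaks per 10 kb, 2.20, 0.841 and 0, had the same order. A link between them was not tested.

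GPI, the glucose-6-phosphate isomerase, had 2 peaks. The one 556 bp downstream of the canonical TSS (chr19:34365575-34365989) had a pileup of 15 over a background of 1.54, a fold of 6.31 and a −log10 q of 5.72, and its sequence is printed above. The other lay in coding exon 18, with a pileup of 11 and a fold of 4.73, and also at an internal TSS of the overlapping gene ENSG00000266953.

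Aldolases cleave fructose 1,6-bisphosphate. ALDOA, the muscle and general form, had 1 peak (chr16:30066914-30067058, pileup 14, background 2.40, fold 4.42, −log10 q 3.43). Its summit lay in a coding exon, 1199 bp downstream of the canonical TSS and near another TSS, and also inside the overlapping protein-coding gene ENSG00000285043, so it was not ALDOA's alone. The windows around the 18 annotated TSSs of ALDOA span 7.4 kb, more than the gene (6.3 kb), so most summits in it would lie near a TSS. ALDOC, the brain form, had none. Its GC content was 55.6%, and in the 1 kb downstream of its canonical TSS it was 54.8% with a CpG ratio of 0.232.

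Enolases convert 2-phosphoglycerate to phosphoenolpyruvate, and all 3 genes had peaks. ENO1, the general form, had 5 peaks over 18.2 kb. A pair lay downstream of the start, at 238 bp (chr1:8878372-8878554, pileup 10, background 1.17, fold 5.08, −log10 q 3.39) and at 864 bp (pileup 7, fold 3.39). The other 3 lay in the last part of the gene, 12792 to 15396 bp from the canonical TSS, in introns 7 and 8 and coding exon 10. Their folds, 6.61, 6.82 and 6.73, were the next highest of the pathway after that of SLC16A3, and they had pileups of 12, 12 and 11 over backgrounds of 0.966, 0.907 and 0.784. They occupied chr1:8865709-8865999, chr1:8864040-8864289 and chr1:8863210-8863399, with −log10 q of 5.34, 5.59 and 5.26. At ENO1, then, the peaks with the higher folds were those away from the start. ENO2, the neuronal form, had 4 peaks over 9.95 kb, all near internal TSSs. The 1 kb windows around its 14 annotated TSSs span 9.87 kb, so most summits in ENO2 would be given that class. The highest there, at coding exon 3 (chr12:6916354-6916701), had a pileup of 18 over a background of 2.07, a fold of 6.18 and a −log10 q of 6.44. A summit in the first intron, 653 bp from the canonical TSS, had a pileup of 10, and 2 others lay at 7581 and 8344 bp, in coding exon 10 and the 3' UTR. ENO3, the muscle form, had 1, in coding exon 7 (chr17:4955075-4955252, pileup 10, background 1.54, fold 4.34, −log10 q 2.65). Per 10 kb, ENO2 had 4.02 peaks, ENO1 2.75 and ENO3 1.11. GC content had another order than at the phosphofructokinases: it was 55.3% in ENO2, 50.2% in ENO1 and 58.2% in ENO3, the gene with the fewest peaks.

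Lactate dehydrogenase interconverts pyruvate and lactate. LDHA, whose subunit is associated with lactate formation, had 1 peak, in the first intron 212 bp from the canonical TSS (chr11:18394644-18394781). It rested on 7 fragments over a background of 1.04, with a fold of 3.92 and a −log10 q of 1.94. LDHB had none over 122.5 kb with a GC content of 38%, and no peak lay within 500 kb of its midpoint. These values describe the whole annotated gene, whose canonical TSS lies 100015 bp inside the outermost 5' end. LDHC, the testis form, outside the list, also had none.

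Of the other 5 genes between the aldolase step and pyruvate kinase, 3 had a peak, with 1 each, against 47.2% of all protein-coding genes with any peak. GAPDH had none over 3.86 kb with a GC content of 60%, with 97 peaks within 500 kb of its midpoint and the nearest 4708 bp past its end. PGK1, on the X chromosome, had none. TPI1, the triosephosphate isomerase, had 1, 645 bp upstream of its outermost 5' end and inside the neighbouring gene USP5 (chr12:6866299-6866513, pileup 9, background 1.10, fold 4.76, −log10 q 2.93). The phosphoglycerate mutase genes had 1 each. That of PGAM1, 1007 bp downstream of its start in the first intron, was just outside the 1 kb window of the 5' end and was counted through another TSS (chr10:97427085-97427268, pileup 7, background 1.04, fold 3.93, −log10 q 1.95). That of PGAM2, the muscle form, lay in coding exon 1, which overlaps the gene DBNL (chr7:44065143-44065268, pileup 13, background 3.59, fold 3.05, −log10 q 1.78).

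Pyruvate kinase forms pyruvate. PKM, which encodes the M1 and M2 forms, and PKLR, which encodes the liver and red cell forms, had 3 peaks each in different places. All 3 of PKM lay in the first intron. They were 236 bp (chr15:72230902-72231073, pileup 8, background 1.54, fold 3.55, −log10 q 1.68), 885 bp (pileup 9, fold 4.48) and 8828 bp from the canonical TSS. The last of these had the highest fold, 5.04 (chr15:72222275-72222456, pileup 8, background 0.784, −log10 q 3.10). All 3 of PKLR lay in its body, 6117 to 8609 bp from the start. The highest fold there was 4.31 (chr1:155294227-155294491, pileup 10, background 1.56, −log10 q 2.65).

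The PFKFB enzymes make and break fructose 2,6-bisphosphate, an activator of phosphofructokinase. PFKFB3, a form with high kinase activity, had 8 peaks, PFKFB4 had 6, and PFKFB1 (on the X chromosome) and PFKFB2 had none. PFKFB3 was the only pathway gene with 2 summits at its outermost 5' end, 407 and 929 bp downstream. The 2 peaks, at chr10:6145137-6145376 and chr10:6145671-6145940, had pileups of 7 and 9, backgrounds of 1.11 and 1.17, folds of 3.79 and 4.62 and −log10 q of 1.82 and 2.78. The canonical TSS lies 57998 bp further in and had no summit within 1 kb. Over the 8 peaks of PFKFB3 the highest fold was 4.94, in the body between these starts (chr10:6185892-6186019, pileup 9, background 1.02, −log10 q 3.11). At PFKFB4 the summit 961 bp from the outermost 5' end, just inside the window, had the highest fold (chr3:48561039-48561172, pileup 12, background 1.22, fold 5.84, −log10 q 4.54). Of its peaks in the body or at internal TSSs the highest fold was 4.71 (chr3:48550089-48550282, pileup 11, background 1.55, −log10 q 3.23). The 32 bases at the summit of 1 body peak of PFKFB4, 25293 bp from the canonical TSS, occurred 51 times in the genome, and whether its fragments all come from this gene was not tested.

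Of the 6 pentose phosphate genes 4 had a peak, against 47.2% of all protein-coding genes. TKT, the transketolase, had 6, TALDO1, the transaldolase, RPIA, the ribose-5-phosphate isomerase, and RPE, the ribulose-5-phosphate epimerase, had 1 each, and PGLS and PGD of the oxidative branch had none. H6PD, which catalyses oxidative steps in the endoplasmic reticulum and is outside the list, had 5. At TKT a peak 473 bp downstream of the canonical TSS (chr3:53255547-53255934) had a pileup of 8 over a background of 1.08, a fold of 4.32 and a −log10 q of 2.41. The highest at TKT lay 6259 bp into the gene, in the first intron, with a pileup of 16 over 2.05, a fold of 5.58 and a −log10 q of 5.14. At RPE the peak lay 260 bp downstream of the canonical TSS (chr2:210002857-210002989, pileup 7, background 0.698, fold 4.71, −log10 q 2.65). It stood alone: the nearest peak outside the gene was 696739 bp away. The single peaks of TALDO1 and RPIA lay in introns 2 and 8, with folds of 4.28 and 5.25. PGD missed a peak narrowly, since a summit lay 173 bp beyond its end.

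Lactate leaves the cell through monocarboxylate transporters. SLC16A3, which encodes the lactate exporter MCT4, carried 21 peaks, 23.1% of those of the pathway, and SLC16A1, which encodes MCT1, carried none. Only 60 protein-coding genes (0.3%) had as many as 21, counted without merging close peaks. With peaks less than 1 kb apart merged, SLC16A3 had 11. Of the 21, 7 lay near internal TSSs and 14 elsewhere in the body, and none lay within 1 kb of the outermost 5' end. Relative to the canonical transcript 6 lay upstream, 6 in the first intron, 1 in a coding exon and 8 beyond its end. These 8 also lay in or at a TSS of the overlapping gene CSNK1D, a casein kinase, and the remaining 13 lay in no other protein-coding gene. The highest fold and pileup of all 91 peaks were here, 8.15 and 23 over a background of 1.94 with a −log10 q of 11.4 (chr17:82219437-82220025). That summit lay 1641 bp downstream of the outermost 5' end and upstream of the canonical TSS. A peak in the first intron (chr17:82231410-82232032) had a pileup of 19 over 2.29, a fold of 6.07 and a −log10 q of 6.52. At the canonical start, 192 bp downstream, the peak was ordinary, with a pileup of 12 and a fold of 3.87. Pileups of 17 were found at 3 further peaks, with folds of 3.53 (chr17:82235184-82235643, background 4.10, −log10 q 2.87), 3.21 (chr17:82249019-82249635, background 4.61, −log10 q 2.46) and 3.50 (chr17:82250274-82250400, background 4.15, −log10 q 2.81). Of the 5 widest peaks of the pathway 4 lay in this gene, at 817 bp (chr17:82253694-82254510, pileup 16, background 2.59, fold 4.74, −log10 q 4.20), 773 bp (chr17:82226052-82226824, pileup 16, background 2.25, fold 5.23, −log10 q 4.79), 623 bp and 617 bp. The 32 bases at the summit of the widest occurred 6 times in the genome, and those at a neighbouring summit 3 times. The surroundings were rich in peaks: 307 lay within 500 kb of the midpoint of SLC16A3, against 45.5 per Mb on chromosome 17 and 11 per Mb over chromosomes 1 to 22 and X. The background at its peaks was also higher, with a median of 2.66 fragments against 1.54 for all peaks. The part of the region and of this background in the count at SLC16A3 was not tested.

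At the entry of pyruvate into mitochondria, PDHA1 and PDHB, subunits of pyruvate dehydrogenase, had no peak. PDK1, the kinase that inhibits the enzyme, had 1, 331 bp downstream of the canonical TSS (chr2:172556255-172556474), with a pileup of 8 over a background of 0.698, a fold of 5.30 and a −log10 q of 3.32. It lay 1048 bp from the outermost 5' end, just outside that window.

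The 14 genes without a peak were SLC2A3, HK3, PFKM, ALDOC, GAPDH, PGK1, LDHB, PFKFB1, PFKFB2, PGLS, PGD, SLC16A1, PDHA1 and PDHB. Their gene bodies had a median GC content of 44.6%, against 51.9% for the 24 genes with a peak, and the medians in the 1 kb downstream of the canonical TSS were 55.1% and 64.2%. They were about as long, with medians of 31.6 and 29.3 kb. The 3 genes on the X chromosome were among them. On X 11.5% of protein-coding genes had any peak, so a lack of peaks there is common to the chromosome. With pileups this low, a gene without a peak is one where no enrichment was detectable at this depth, which does not show that the mark is absent.

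A further 31 genes of glucose metabolism, among them gluconeogenesis and pyruvate dehydrogenase genes, had shares below or near those of all protein-coding genes. A peak was present at 12 of them (38.7%, exact interval 21.85 to 57.8%), against 47.2% of all protein-coding genes, at the 5' end of 4 (12.9%) and at an internal TSS of 6 (19.4%). The most peaks were at PC, the pyruvate carboxylase, with 20, followed by PDK2, another pyruvate dehydrogenase kinase, with 7, and H6PD with 5. The share with any peak has an interval that overlaps that of the 38 genes, and the difference between the lists was not tested.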

How the data were processed

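The H4R3me2a library was compared with the input library by the authors, who deposited 1 peak list; the submitters' processing notes name Bowtie2, MACS2, deepTools and GRCh38. Tool versions and calling parameters: not given in the sources used here. Deposited pileup is a count of fragments over the summit, not normalized. The deposited fold was read as a ratio of pileup over local background with 1 added to each. The deposited −log10 q comes from the authors' caller. All are the peak's own values. Read totals are not given, so depth is known from the pileup alone.

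Summits on chromosomes 1 to 22 and X were placed in GENCODE release 44 (GRCh38) by 1 rule, in the order outermost 5' end (within 1 kb), other TSS (within 1 kb), gene body. The background was recovered as (pileup + 1) / fold − 1, which assumes the caller's usual pseudocount of 1. The lowest background at the pathway peaks, 0.698, was also the lowest over all peaks. Python 3.11.15, pandas 2.3.3, SciPy 1.17.1 and pysam 0.24.0 were used. Assignment was checked on simulated peaks at 200 genes, where 553 of 553 returned their class. Shares have exact (Clopper-Pearson) 95% intervals, and no p-value was computed with 1 library a group. Members and lists were chosen with earlier results of these data known. All 38 genes are named, with full values for every 5' end peak, the highest-fold internal or body peak of each isozyme, and the 5 highest-fold, highest-pileup and widest peaks. The measures around the canonical TSS, the GC and length ranges and the genome copy counts were added after seeing the data. Stricter peak sets, merging, other windows, other TSS sets, interval overlap and removal of shared peaks were tried as alternatives. The deposited interval list repeats the same peaks, and it and the summary table were not used.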

Additional observations from a re-analysis of the deposited data

How the results depend on the processing

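Of 72 recomputed counts over the pathway, 58 stayed within 1.5 times the reported value. Some of these could not move. Taking the canonical TSS as the 5' end leaves the total of peaks and of genes with a peak unchanged. Leaving out SLC16A3 cannot change the peaks at the isozymes. The tally is therefore no measure of robustness. Counts of pathway genes below are out of 38, unless SLC16A3 is left out. With a −log10 q of 5 or more, 10 peaks remained at 7 genes, 1 gene with a 5' end peak, 4 with an internal TSS peak, 3 with a body peak, 5 peaks at the isozymes and 3 genes with a canonical start summit. Over all protein-coding genes this set left 5.25% with a peak, 1.59% at the 5' end, 1.55% at an internal TSS and 2.5% in the body. It left 1.59% with a canonical start summit. Peaks fell to 57 with a fold of 4 or more, and to 53 with the upper 50% by −log10 q, which also left 6 genes with a 5' end peak (against 11.3% of all protein-coding genes) and 20 peaks at the isozymes. Genes with a 5' end peak numbered 5 with a 500 bp window and 17 with a 3 kb window, against 9.83% and 30.8% of all protein-coding genes. Genes with an internal TSS peak numbered 10 when protein-coding transcripts alone gave TSSs, against 11.1% of all protein-coding genes. These sets contain fewer peaks, fewer TSSs or other windows by construction. With the canonical TSS as the 5' end, 12 genes had a 5' end peak, against 21.4% of all protein-coding genes. Leaving out SLC16A3, a choice made after seeing the data, left 70 peaks at 23 genes. Leaving out peaks shared with another coding gene left 79 peaks at 21 genes and removed the only peak of ALDOA, TPI1 and PGAM2. Genes with a 5' end peak then numbered 8, against 13.3% of all protein-coding genes. LDHA, PGAM1 and PGAM2 had no peak with a fold of 4 or more. That setting left 21 genes with a peak, against 38.5% of all protein-coding genes. The 21 peaks of SLC16A3 became 11 with peaks less than 1 kb apart merged and 13 without shared peaks. They became 9 with a fold of 4 or more and 2 with a −log10 q of 5 or more. Merging also took ENO1 from 5 peaks to 3 and HK2 from 2 to 1. Of 252 recomputed counts at single genes, 37 moved further than 1.5 times, a tally that includes genes without a peak. No paired analysis was possible because there was 1 library of each kind. Pileups of 6 to 23 fragments limit every count, and a peak absent at this depth may be present in a deeper library.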
